A study of Mus musculus with 2 samples.

Results

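The genes described here encode the nuclear part of the mitochondrial respiratory chain and of the ATP synthase. They were all genes of a RefSeq gene table whose symbol begins with Nduf (complex I), Sdha, Sdhb, Sdhc or Sdhd (complex II), Uqcr (complex III), Cox4 to Cox8 (complex IV) or Atp5 (complex V) and whose RefSeq accession is carried by a probe of the array. This gave 96 genes of 22911 with a named probe, and 93 of the 96 were measured on both arrays, among 13001 such genes in all. The table holds 119 genes with these symbols. Of the 23 without a matched probe, 19 are pseudogenes and 4 are protein-coding (Cox5b, Ndufb1, Ndufb4b and Ndufb4c). The Nduf and Sdha prefixes also take in 12 assembly factors, so the complexes named here are groups of symbols.

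The series compared 1 RNA sample of wild-type pancreas (WT) with 1 of Nrdc-cKO pancreas, from male C57BL/6 mice aged 5 weeks. How many animals a sample holds was not given. The Nrdc-cKO genotype is Ptf1a-Cre with Nrdc flox/flox, in which Cre is driven by Ptf1a, a transcription factor gene of pancreatic progenitors and acinar cells, and cells without a history of Ptf1a expression keep Nrdc, the gene of the metalloendopeptidase nardilysin. The labels leave unsaid whether WT mice carried Cre or floxed alleles. Total RNA was labelled with Cy3 and each sample was hybridised to 1 Agilent array. A group of 1 array has no spread between replicates, so nothing below was tested and each difference describes these arrays.

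Complex I takes electrons from NADH and complex II takes them from succinate. Both pass them through ubiquinone to complex III and, by cytochrome c, to complex IV, which reduces oxygen. Complexes I, III and IV pump protons, and complex V, the ATP synthase, uses their return to make ATP. A few catalytic subunits are encoded by mitochondrial DNA and were not analysed here. In pancreatic acinar cells oxidative phosphorylation supplies ATP for enzyme synthesis and calcium pumping, and in beta cells it couples glucose to insulin release.

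A level below is the log2 processed signal of a probe minus the 75th percentile of its array, averaged over the probes of a gene that stood well above background on both arrays, and a difference is the Nrdc-cKO level minus the WT level. Levels of different genes come from different probes and were not ranked against each other. The processed signal at the 75th percentile was 70.8 for WT and 227 for Nrdc-cKO, and scaling by it removed a log2 shift of 1.68. Before scaling, 91 of the 93 genes were brighter on the Nrdc-cKO array, with a median log2 difference of 0.96 against 1.5 for all genes. "Lower" below therefore means lower relative to the rest of the array. Of the non-control spots, 46.3% for WT and 60.3% for Nrdc-cKO were well above background. Error could be gauged only from 291 probes spotted repeatedly, whose log2 differences varied with a median SD of 0.032 (95th percentile 0.074), which leaves out animal, dissection, extraction and labelling. Nrdc, measured by 1 probe, had a level of 1.93 in WT and -1.28 in Nrdc-cKO, a difference of -3.21. The labels do not say which part of Nrdc was deleted.

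The respiratory chain genes as a group were moderately lower on the Nrdc-cKO array. Their median difference was -0.72, with quartiles of -0.94 and -0.40, against -0.18 for all genes, with quartiles of -0.75 and 0.41. Of the 93, 82 lay below 0 (88.2%, against 58.7% of all genes). At least 2-fold lower were 18 (19.4%), close to the 17.3% of all genes, and 1 was at least 2-fold higher, against 12.8% of all genes. At 1.5-fold, 56 were lower and 2 higher, against 31.3% and 20.1% of all genes. In whole-tissue RNA, fewer cells of a type and less RNA per cell cannot be told apart.

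**Figure D1:**
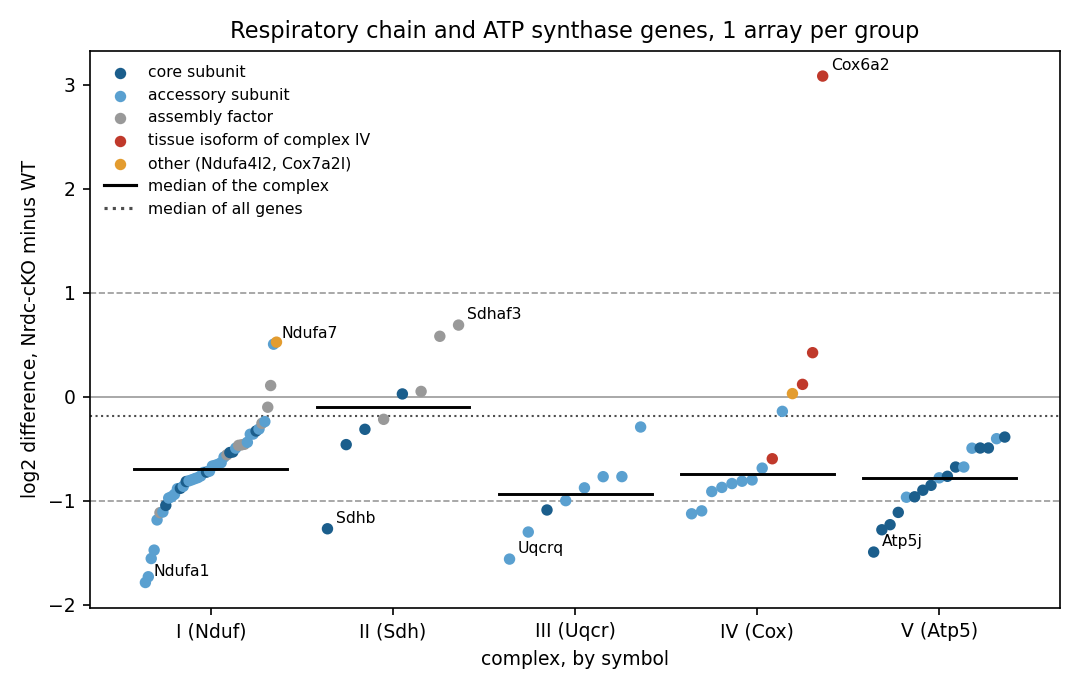
Log2 difference (Nrdc-cKO minus WT) of each of the 93 genes measured on both arrays, 1 point per gene, sorted within its complex and coloured by kind of gene, with the median of each complex as a black bar, 0 as a solid line, 2-fold as dashed lines and the median of all genes as a dotted line. Complexes I, III, IV and V have medians between -0.94 and -0.69. Complex II has -0.09, and 4 of its 8 genes are assembly factors. Cox6a2 stands alone at 3.08.

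Bright probes in general were lower on the Nrdc-cKO array, and 61 of the 93 genes had a mean level of 4 to 8. Of the 1040 genes measured in this range, 76.2% were below 0 and 27.5% at least 2-fold lower, while 7.88% were at least 2-fold higher. The respiratory chain genes there were below 0 in 59 of 61 cases and at least 2-fold lower in 16 of 61, with a median of -0.79 against -0.51 for the 979 other genes of the range. In the range of 2 to 4 the medians were -0.64 for 14 of them and -0.24 for 2544 others, and in the range of 0 to 2 they were -0.35 for 12 and -0.08 for 4633. Outside these ranges, 5 genes at levels of -2 to 0 had a median of 0.43, against -0.02 for 3989 others. The 1 gene at a level of 8 and over stood at -0.81, against a median of -0.91 for 118 others. At levels of 0 to 8 the direction of the group thus followed that of other genes of like brightness, with a larger size in each range. No test of that gap was possible.

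**Figure D2:**
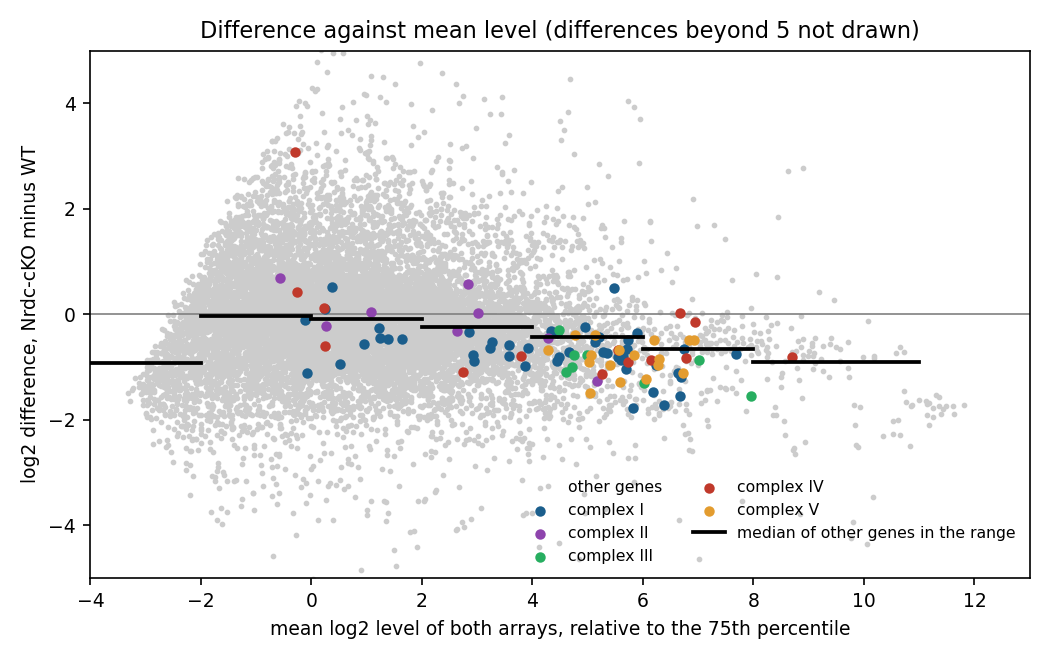
Log2 difference (Nrdc-cKO minus WT) against the mean log2 level of both arrays for all genes measured on both, with the respiratory chain genes coloured by complex and the median of the other genes in each range of level as a black bar. The bar of the dimmest range, below -2, stands at -0.93. From there up, the bars go down from -0.02 at levels of -2 to 0 to -0.91 at levels of 8 and over. Most coloured points between 4 and 8 lie under the bars.

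The direction depended on the scaling, and the size on the signal used and its background correction as well. Spike-in scaling, which adds 1.90 to every gene, put all 93 above 0, with a median of 1.17 against 1.71 for all genes. The median was -0.29 with quantile scaling, -0.25 with loess and -0.23 in the authors' deposited value table. With the 75th percentile kept, normexp replaced the processed signal by the background-corrected median signal of each spot plus an offset of 50. The median difference was then -0.21, with 64 of 93 below 0 and a gap of 0.15 to all genes, the smallest found. The split of genes at least 2-fold higher and lower, 1 and 18, became 2 and 4 with quantile scaling, where 13.8% of all genes were higher and 14.8% lower. It was 2 and 3 with loess (16% and 10.6% of all genes), 2 and 3 with normexp (9.58% and 8.81%), 5 and 4 in the value table (22.2% and 8.26%) and 67 and 0 with spike-in scaling (79.8% and 0.885%). The share of these genes at least 2-fold lower was thus close to that of all genes in the main scaling and below it in these others, at 4.30% for the quantile and value-table settings and 3.23% for loess and normexp. Normexp with quantile scaling gave 2 and 3 (9.01% and 6.51% of all genes), and the 75th percentile over detected probes 1 and 11 (15.1% and 13.4%). The split was 3 and 19 with no filter (13.6% and 35%), 0 and 17 with bright probes only (5.25% and 22%) and 1 and 17 with the brightest probe (13.3% and 17.7%). The median of these genes was below the median of all genes by 0.54 in the main scaling. Spike-in scaling, the value table and the 75th percentile over detected probes add the same constant to every gene, so they could not change that gap. In the other settings tried the gap was 0.15 to 0.55, in the same direction.

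**Figure D3:**
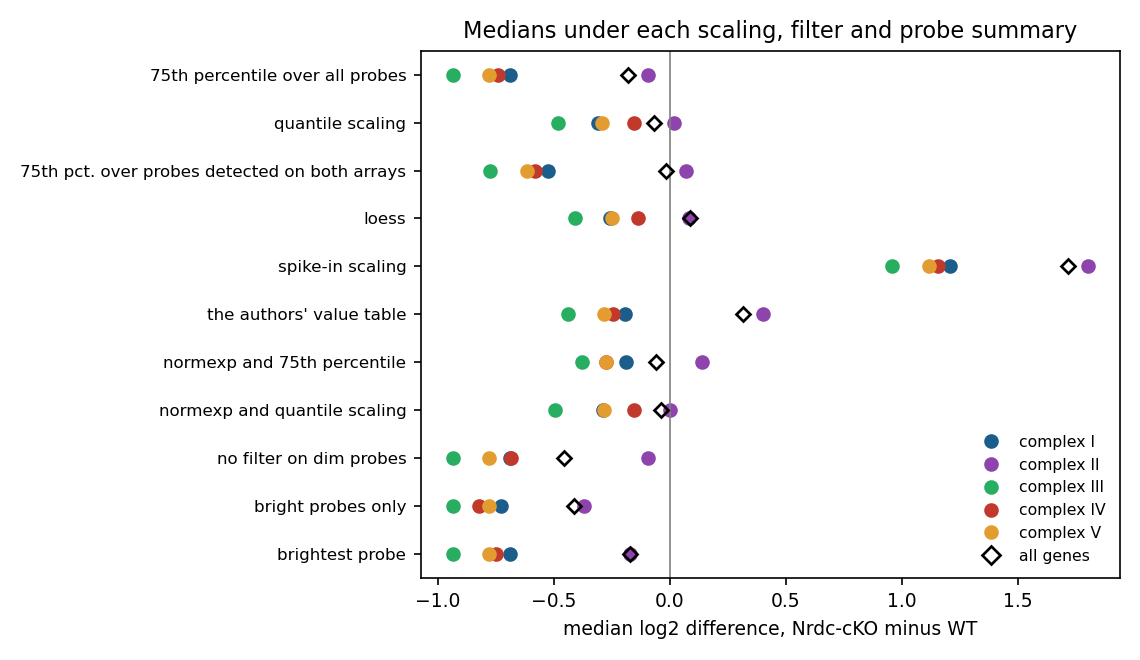
Median log2 difference (Nrdc-cKO minus WT) of each complex, as filled circles, and of all genes, as an open diamond, under each scaling, background correction, filter and probe summary. Complexes I, III, IV and V lie to the left of the diamond in every line, complex II lies on it or to its right, and every point with spike-in scaling lies to the right of 0.

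Complex I gave 46 genes, all of them measured, and their median was -0.69. Of these, 43 were below 0, 8 at least 2-fold lower and 0 at least 2-fold higher. The 8 are 17.4%, close to the 17.3% of all genes and below the 27.5% of genes at levels of 4 to 8. The lowest was Ndufa1, a small membrane-arm subunit whose gene is on the X chromosome, with a level of 6.71 in WT and 4.92 in Nrdc-cKO, a difference of -1.78 (3.45-fold lower). Ndufb9 went from 7.25 to 5.52 (-1.73) and Ndufb10 from 7.45 to 5.90 (-1.55), and both encode accessory subunits at the distal membrane arm. Ndufa1 and Ndufb9 stayed at least 2-fold lower in every scaling, correction, filter and probe summary tried except spike-in scaling, where they stood at 0.11 and 0.17. Each of the other 16 genes past 2-fold lower, in any complex, did not keep that call in at least 4 of the 10 such settings. Ndufv3 went from 6.91 to 5.44 (-1.47) and Ndufs6 from 7.29 to 6.10 (-1.18), and both encode accessory subunits of the NADH-oxidising tip. The membrane-arm subunit Ndufb11 went from 7.19 to 6.08 (-1.11). Ndufs7, which holds the last iron-sulfur cluster before ubiquinone, went from 6.21 to 5.17 (-1.04).

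The modules of complex I had similar medians. It was -0.77 over 8 genes of the NADH-binding module, -0.53 over 5 genes of the ubiquinone-binding module and -0.79 over 19 genes of the membrane arm, and all 32 were below 0. The subunit that binds NADH and FMN, Ndufv1, went from 4.89 to 4.01 (-0.88), with its probes at -0.84 and -0.91. The largest core subunit, Ndufs1, stood at -0.53. Ndufa13, also known as GRIM-19, stood at -0.76, and Ndufab1, the mitochondrial acyl carrier protein, at -0.94.

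The exceptions in complex I were few. Ndufa7, an accessory subunit, went from 5.23 to 5.74 (0.51) on its detected probe, and its other probe, for a non-coding transcript, was not well above background on either array. Ndufa7 passed 2-fold with quantile scaling, loess, either normexp setting or the value table. Ndufa4, named for complex I although its protein is now assigned to complex IV, stood at -0.36, and its hypoxia-induced paralogue Ndufa4l2 went from 0.10 to 0.63 (0.53). The 8 assembly factors had a median of -0.46. Among them Ndufaf5, which in human cells modifies the Ndufs7 protein, was the lowest, from 0.47 to -0.64 (-1.11), with its probes at -1.52 and -0.71, while Ndufaf6 (-0.10) and Ndufaf8 (0.11) were near 0.

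Complex II, which is also the succinate dehydrogenase of the TCA cycle, behaved unevenly. Its 8 genes had a median of -0.09, with 4 below 0, 1 at least 2-fold lower (12.5%, against 17.3% of all genes) and 0 higher. The sign of this median was not settled, since it was 0.017 with quantile scaling, 0.40 in the value table and -0.37 with bright probes only. In the main scaling the 4 subunits alone had a median of -0.39, with 3 below 0. The 4 assembly factors had a median of 0.32, with 1 below 0. The iron-sulfur subunit Sdhb went from 5.80 to 4.53 (-1.27, 2.41-fold lower), and its probes gave -1.32 and -1.22. The flavoprotein Sdha went from 2.80 to 2.48 (-0.31). The membrane anchor Sdhd went from 4.50 to 4.04 (-0.46) and the other anchor, Sdhc, from 3.0 to 3.03 (0.03). The assembly factors were not lower as a set. Sdhaf1 and Sdhaf3, known from yeast and flies to help mature the iron-sulfur subunit, went from 2.54 to 3.13 (0.58) and from -0.91 to -0.22 (0.69). Sdhaf4 stood at 0.05. Sdhaf2, which is needed to attach FAD to Sdha, had 1 probe at 0.44 and the other at -0.87, and its mean of -0.22 therefore has no settled direction.

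Complex III had the lowest median, -0.94, and all 8 of its genes were below 0. At least 2-fold lower were 3 (37.5%, against 17.3% of all genes and 27.5% of genes at levels of 4 to 8). Uqcrq, a small subunit, went from 8.73 to 7.17 (-1.56), Uqcr11 from 6.67 to 5.37 (-1.30), and Uqcrfs1, the Rieske iron-sulfur protein that accepts electrons from ubiquinol, from 5.14 to 4.06 (-1.09). The core protein Uqcrc1, at -0.998, lay just short of 2-fold, and the other core protein Uqcrc2 was at -0.77. The hinge protein Uqcrh stood at -0.87 and Uqcrb at -0.77. The least lower was Uqcr10, at -0.29, with its probes at -0.42 and -0.16. Cyc1, the cytochrome c1 subunit of the same complex, which the symbols do not take in, stood at -0.79, and its electron acceptor cytochrome c, Cycs, at -0.29.

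Complex IV had 17 genes, and the 14 measured in WT and Nrdc-cKO alike had a median of -0.74. Of the 14, 2 were at least 2-fold lower (14.3%) and 1 higher (7.14%), against 17.3% and 12.8% of all genes. The 9 ubiquitous subunits were all below 0, and 8 of them lay between -1.12 and -0.68. Cox7b went from 5.81 to 4.69 (-1.12) and Cox6b1, which faces the cytochrome c docking side, from 3.29 to 2.19 (-1.10), and both were past 2-fold. Both lost the 2-fold call with every other scaling and with either normexp setting. Cox7a2 (-0.91), Cox5a (-0.87), Cox4i1 (-0.83), Cox6a1 (-0.81), Cox7c (-0.80) and Cox6c (-0.68) followed within a narrow range. Cox8a was the exception, at 7.02 and 6.88 (-0.14). Cox7a2l, known as a factor of supercomplexes of the respiratory chain, stood at 6.65 and 6.68 (0.03).

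The tissue isoforms of complex IV did not share this direction as a set. Of the 4 measured on both arrays, Cox6b2 alone was below 0. Cox6a2, the heart and skeletal muscle form of subunit 6a, went from -1.84 in WT to 1.24 in Nrdc-cKO, a difference of 3.08 (8.48-fold higher), on 1 probe. It was the highest of the 93 genes and stayed past 2-fold in every setting that kept it, from 1.76 with normexp to 4.98 with spike-in scaling. Its WT processed signal was 19.7 and it was left out with bright probes only. Cox8b, the form of subunit 8 found in heart, skeletal muscle and brown fat, was not well above background in WT and had a level of -0.29 in Nrdc-cKO, at least 5.08-fold higher. Cox7a1, another heart and muscle form, stood at 0.43, and Cox4i2, known from lung and from hypoxia, at 0.12. Of the testis forms, Cox6b2 stood at -0.59, Cox7b2 was detected in Nrdc-cKO alone, too dim for a bound above 1, and Cox8c was not well above background on either array.

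**Figure D4:**
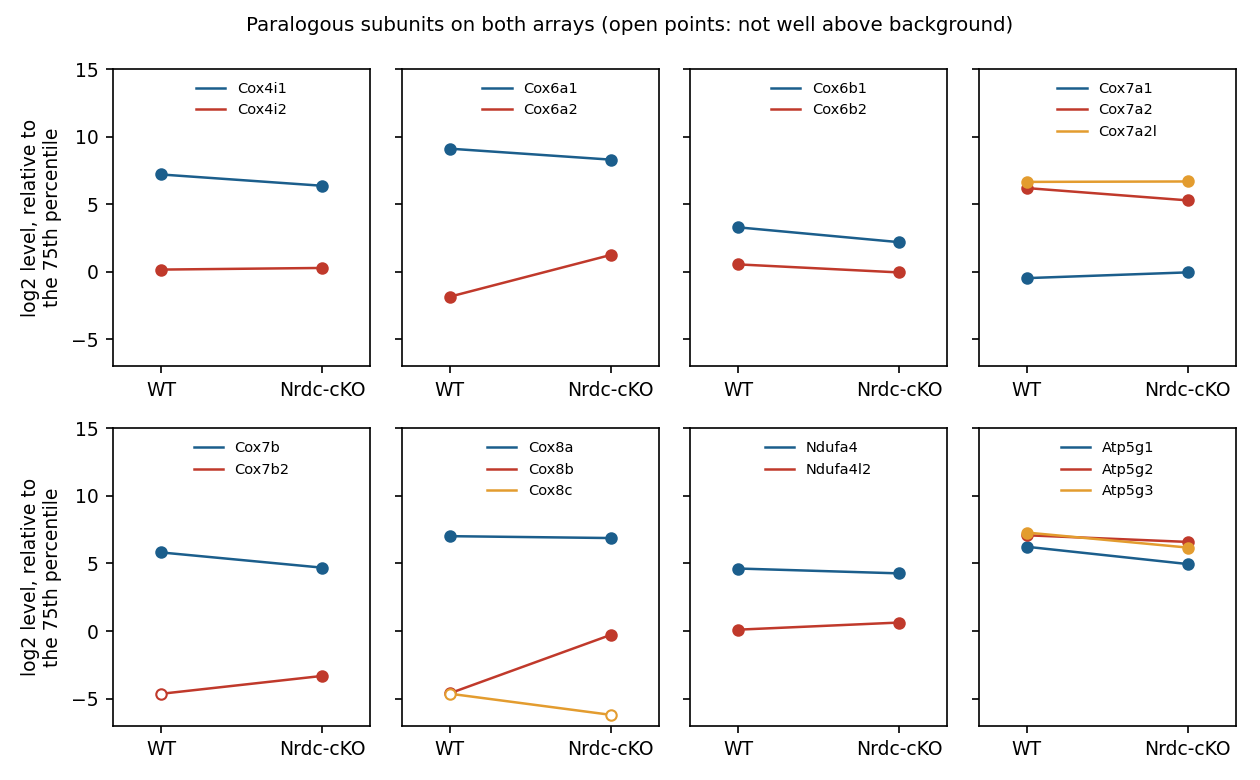
Log2 level, relative to the 75th percentile of the array, of paralogous subunits in WT and Nrdc-cKO, with 1 line per gene, 1 panel per group of paralogues and open points where the probe was not well above background. Lines of different genes come from different probes, so only their slopes are to be compared, and those of Cox6a2 and Cox8b go up while those of Cox6a1 and Cox8a go down.

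Markers of other cells differed between the arrays as well, and their part in these values was not tested. Of 12 skeletal muscle markers, 4 (Ckm, Mb, Myh1 and Myh4) were not well above background on either array, 5 were detected in Nrdc-cKO alone, and the 3 measured on both, Tnni2, Tnnt3 and Atp2a1, stood at 0.94, 0.00 and -0.16. Of the 5, Myl1 was at least 4.08-fold, Myh2 at least 3.64-fold and Acta1 at least 2.33-fold higher. The summed signal of that list, relative to the 75th percentile, was 1.14 in WT and 2.91 in Nrdc-cKO. For 6 heart markers it was 0.956 and 1.69, with Myh6 not well above background on either array, Actc1 3.24-fold higher, Nppa at -0.71, and Tnnt2, Tnni3 and Myl7 detected in Nrdc-cKO alone. For 9 brown fat markers it was 4.16 and 4.18, and Ucp1, which defines that tissue, was not well above background on either array, nor were Dio2 and Cpt1b. Cidea (at least 2.37-fold higher), Kcnk3 (at least 2.15-fold higher) and Elovl3 were detected in Nrdc-cKO alone, and Ppargc1a, Otop1 and Prdm16 stood at 0.78, 0.34 and -0.83. For 10 markers of fat cells in general the summed signal was 12.5 and 452, and 6 of these were detected in Nrdc-cKO alone. Of the 4 measured on both arrays, 1 was below 0, Lep at -1.87. All 12 islet markers were at least 2-fold higher, with summed signals of 384 and 2989. All 14 acinar markers were at least 2-fold lower, with 52098 and 12641. This acinar call rests in part on the scaling. Before it, several had near-equal signals, such as Cpa1 (288936 in WT, 287240 in Nrdc-cKO) and Prss2 (371593 and 356856). Others were dimmer in Nrdc-cKO before it as well, such as Ctrl (339942 and 53100). With spike-in scaling the acinar median was 0.08, against -1.81 in the main scaling. The sums were 23.8 and 56.2 for 12 pericyte and smooth muscle markers, 206 and 776 for 7 fibroblast markers, 39.5 and 79.6 for 8 macrophage markers, 61.9 and 184 for 8 duct markers, and 1.08 and 0.816 for 5 male germ cell markers. The duct sum rested largely on Spp1, with a level of 4.48 in WT and 7.36 in Nrdc-cKO. Muc1 and Cftr, at -2.25 and -1.59, were the 2 duct markers below 0. The labelled tissue was thus present on both arrays by its acinar markers, none of which was missing.

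Complex V had 17 genes, all measured and all below 0, with a median of -0.78. At least 2-fold lower were 4 (23.5%, against 17.3% of all genes and 27.5% of genes at levels of 4 to 8). In the peripheral stalk, which holds the catalytic head still, Atp5j (coupling factor F6) went from 5.79 to 4.30 (-1.49) and Atp5o (the oligomycin sensitivity protein) from 6.67 to 5.44 (-1.23), with the probes of Atp5o at -1.25 and -1.21. Atp5pb, subunit b of the stalk, stood at -0.76. Atp5h, subunit d, had probes at -0.72, -0.76 and 0.01, which differ in sign, and a mean of -0.49. In the head and central stalk, the 5 genes had a median of -0.85 and none was past 2-fold. The catalytic beta subunit Atp5b stood at -0.90, with its 3 probes between -0.98 and -0.84, and the alpha subunit Atp5a1 at -0.39, with its probes at -0.64 and -0.13.

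The 3 genes of the c-ring, the proton-driven rotor, encode the same mature protein from different precursors. Atp5g1 went from 6.23 to 4.95 (-1.28, with its probes at -1.41 and -1.15) and Atp5g3 from 7.28 to 6.17 (-1.11). Atp5g2 went from 7.08 to 6.59, and its 10 repeat spots gave -0.49 ± 0.064 (SD over repeat spots). All 3 were below 0, and with different probes for each gene the gaps between them were not tested. The other membrane subunits ranged from -0.96 for Atp5j2 to -0.40 for Atp5md.

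Of the 93 genes, 20 were measured by over 1 probe. The probes of 2 of them, Sdhaf2 and Atp5h, differed in sign. The range between the probes of a gene had a median of 0.15 and was 1.31 at most, for Sdhaf2. Structural subunits alone gave the same picture as the whole set. The 79 measured had a median of -0.78, with 74 below 0 and 17 at least 2-fold lower (21.5%, against 17.3% of all genes). The 12 assembly factors had a median of -0.24, with 8 below 0.

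Promoters were compared because the ubiquitous subunits shared a direction. RefSeq promoter windows of GRCm38.p6, 250 bases before to 50 after the gene start, were matched by symbol for 79 of the 96 genes, in 84 windows. They were searched on both strands for GCGCA followed by any base and GCGC, the core of the site of nuclear respiratory factor 1 (Nrf1), CCGGAAG, the core of sites of ETS factors such as Gabpa, AANATGGC, a core of YY1 sites, the TATA box TATAAA and the E-box CAGCTG of muscle factors. Matches of different motifs did not overlap in these windows. The Nrf1 core was in 22 of 84 windows (26.2%), against 4.6% of all 32851 windows and 6.38% of the 21263 windows of protein-coding genes. The ETS core was in 22 (26.2%, against 8.86% and 11.6%) and the YY1 core in 20 (23.8%, against 6.05% and 6.37%). The TATA box was in 10 (11.9%, against 13.6% and 12.6%) and the E-box in 6 (7.14%, against 16.3% and 15.6%). Windows were available for 4 tissue isoforms, of which 0 held an Nrf1, ETS or YY1 core and 2 held the TATA box. Lower genes did not all hold a core. The windows of Ndufa1 (-1.78), Ndufv3 (-1.47), Atp5g1 (-1.28) and Uqcrfs1 (-1.09) held none of the searched motifs. Some genes above 0 did hold cores, namely Sdhaf3 (0.69, Nrf1 and ETS), Sdhaf1 (0.58, ETS) and Ndufa7 (0.51, YY1 in 1 window). Whether the cores go with the differences was not tested. A match is a run of letters and not a shown site, and a missing match says only that the letters are not in the window.

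Below are the windows of 2 ubiquitous subunits that hold these cores and were lower, and of the subunit 8 pair, in which Cox8a was near 0 and Cox8b higher, chosen after the matches were seen. Each is written 5′ to 3′ on the strand of its gene, with every match of the searched motifs in capitals. Cox6a1 lies at chr5:115348909-115349208, Ndufs6 at chr13:73328433-73328732, Cox8a at chr19:7217567-7217866 and Cox8b at chr7:140900397-140900696, all on the minus strand.
Cox6a1: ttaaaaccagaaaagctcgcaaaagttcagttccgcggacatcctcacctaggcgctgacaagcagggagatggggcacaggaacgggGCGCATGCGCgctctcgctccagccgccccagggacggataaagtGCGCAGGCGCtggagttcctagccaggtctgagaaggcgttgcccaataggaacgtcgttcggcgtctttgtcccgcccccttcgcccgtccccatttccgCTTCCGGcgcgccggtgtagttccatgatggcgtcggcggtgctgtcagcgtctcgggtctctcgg
Ndufs6: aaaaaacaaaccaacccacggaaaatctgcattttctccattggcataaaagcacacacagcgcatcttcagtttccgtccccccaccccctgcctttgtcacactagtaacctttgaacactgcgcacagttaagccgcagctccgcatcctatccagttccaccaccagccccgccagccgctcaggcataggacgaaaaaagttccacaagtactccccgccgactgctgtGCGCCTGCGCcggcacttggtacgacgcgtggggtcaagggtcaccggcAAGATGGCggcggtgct
Cox8a: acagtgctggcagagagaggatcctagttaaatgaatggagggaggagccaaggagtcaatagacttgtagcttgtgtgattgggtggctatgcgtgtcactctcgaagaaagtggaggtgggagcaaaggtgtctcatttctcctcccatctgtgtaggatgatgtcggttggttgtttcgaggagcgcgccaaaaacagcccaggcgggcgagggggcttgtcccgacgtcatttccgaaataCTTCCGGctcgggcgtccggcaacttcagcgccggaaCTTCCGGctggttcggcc
Cox8b: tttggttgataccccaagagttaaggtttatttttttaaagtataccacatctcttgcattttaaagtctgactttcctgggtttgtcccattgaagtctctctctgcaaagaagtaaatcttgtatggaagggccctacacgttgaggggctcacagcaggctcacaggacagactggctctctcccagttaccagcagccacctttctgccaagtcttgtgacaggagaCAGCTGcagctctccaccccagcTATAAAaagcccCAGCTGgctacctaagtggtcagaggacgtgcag
The window of Cox6a1 holds the Nrf1 core at 2 places and the ETS core at 1, and that of Ndufs6 holds the Nrf1 and YY1 cores at 1 place each. Cox8a has the ETS core at 2 places, and Cox8b has the E-box at 2 places on either side of 1 TATA box.

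Of the factors linked to these motifs, Nrf1, Gabpa and Yy1 showed small differences themselves. Nrf1 stood at -0.09 and Gabpa at -0.04, with probes that differed in sign, and Yy1 at 0.16. Gabpb1, of the same list of regulators, stood at -0.51, with probes from -1.11 to 0.46. Over 15 regulators of mitochondrial biogenesis the median was -0.40, with 12 below 0, 3 at least 2-fold lower (20%, against 17.3% of all genes) and 0 higher. The coactivator Ppargc1a was the highest at 0.78 and its relative Ppargc1b stood at -1.34, while Tfb1m, a methyltransferase of mitochondrial ribosomal RNA, was the lowest at -1.42. The nuclear receptor Esrra, a partner of Ppargc1a, stood at 0.20.

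Other mitochondrial gene groups were lower to a similar or smaller degree. The median was -0.55 over 77 mitochondrial ribosomal proteins, from -1.62 for Mrps24 to 1.02 for Mrps6, with 70 below 0, 7 at least 2-fold lower and 1 higher. It was -0.49 over 22 assembly factors of cytochrome c oxidase, with 3 at least 2-fold lower and 0 higher, from -1.14 for Taco1, which activates translation of mitochondrial Cox1, to 0.44 for Cox20. Over 15 assembly factors of complexes I, III and V it was -0.34, with 4 lower and 0 higher, and the complex I factors Timmdc1 (-1.89) and Tmem126b (-1.48) were the lowest. Over 24 protein import genes it was -0.28, with 2 lower and 0 higher. Over 18 genes of pyruvate dehydrogenase and the TCA cycle it was -0.48, with 3 lower and 0 higher, from -1.52 for Idh2 and -1.38 for Suclg1 to 0.07 for Dlat. Over 13 genes of coenzyme Q synthesis it was -0.50, with 4 lower and 0 higher, and Coq8a (-2.14) and Coq9 (-1.54) were the lowest. Among 8 electron carriers and side inputs the median was -0.56, with 1 lower and 0 higher. They ranged from -1.05 for Etfa to 0.86 for Gpd2, the glycerol phosphate dehydrogenase of the inner membrane. Against these counts, 17.3% of all genes were at least 2-fold lower, 12.8% higher and 58.7% below 0. The lower share was above that for coenzyme Q synthesis (30.8%) and assembly of complexes I, III and V (26.7%). Below it were the TCA cycle list (16.7%), cytochrome c oxidase assembly (13.6%), electron carriers (12.5%), mitochondrial ribosomal proteins (9.09%) and protein import (8.33%). Of the mitochondrial ribosomal proteins, 90.9% were below 0.

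The carriers that exchange ATP for ADP across the inner membrane went opposite ways. Slc25a4, the heart and muscle form, stood at 1.06 and Slc25a5, the widely expressed form, at -1.25. Among 7 such carriers and outer membrane channels the median was -0.67, with 2 at least 2-fold lower (28.6%) and 1 higher (14.3%), and the channel Vdac2 was the lowest at -1.38. Glycolysis genes, at a median of -0.10 over 15, had 3 at least 2-fold higher (20%) and 1 lower (6.67%), with the hexokinases Hk1 at 1.89 and Hk2 at -1.09 and the lactate dehydrogenase subunit Ldhb at 1.56. Hypoxia targets, listed because Cox4i2 and Ndufa4l2 respond to hypoxia, had a median of 0.03 over 11, with 2 lower (18.2%) and 0 higher, from -1.78 for Pdk1 to 0.89 for Adm. Of all genes, 17.3% were lower and 12.8% higher.

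**Figure D5:**
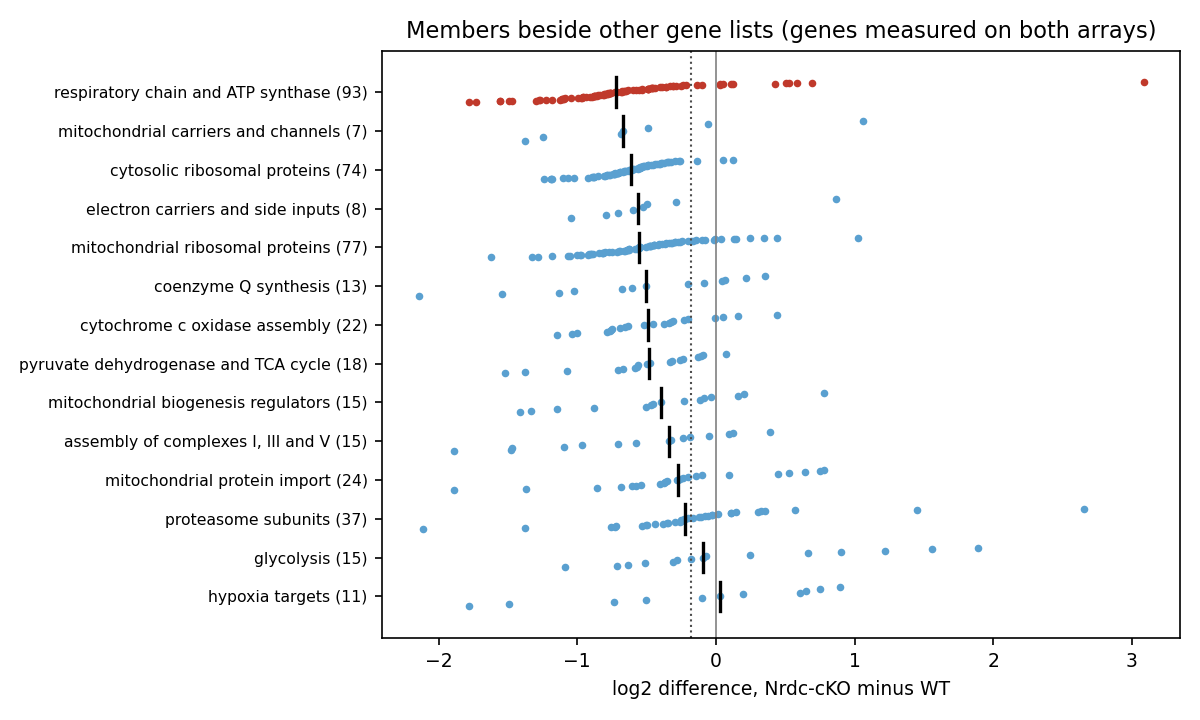
Log2 difference (Nrdc-cKO minus WT) of every measured gene of the respiratory chain and ATP synthase, in red, and of other gene lists, in blue, with the number measured in brackets, the median as a black bar, 0 as a solid line and the median of all genes as a dotted line. The red median of -0.72 is the lowest drawn, next to -0.67 for mitochondrial carriers and channels and -0.61 for cytosolic ribosomal proteins, and hypoxia targets are the highest at 0.03.

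Among other housekeeping sets, the cytosolic ribosomal proteins and the proteasome had medians below 0. Over 74 cytosolic ribosomal proteins the median was -0.61, with quartiles of -0.76 and -0.47, 72 below 0, 7 at least 2-fold lower (9.46%) and 0 higher. Over 37 proteasome subunits it was -0.22, with quartiles of -0.38 and 0.01, 27 below 0, 2 lower and 2 higher (5.41% each). Of all genes, 17.3% were lower and 12.8% higher. These lists differ in brightness, with median WT levels of 8.20 for the ribosomal proteins, 5.36 for the respiratory chain genes and 3.53 for the proteasome. Above a level of -2, the median of other genes goes down with brightness, to -0.65 at levels of 6 to 8 and -0.91 at 8 and over. The order of the lists was therefore not read as a difference between them.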

How the data were processed

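Agilent scanner files of 1 WT and 1 Nrdc-cKO array were used. Per the file headers, both were on 1 slide, read in the same scan, with Feature Extraction 12.0.3.1, while the submitters' processing notes name 11.5.1.1. The deposited processed intensity is background-corrected and detrended within the array, per the file headers, and is not normalized between arrays. The authors' deposited value table is that intensity times 4.37 for WT and 1.92 for Nrdc-cKO, with medians of 42.5 and 66.0. It is linear and uncentred, and the origin of these constants was not given.

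Control spots and outlier spots were left out, which kept 56604 probes of 59305 non-control spots, and no spot was saturated. Signals were put on a log2 scale, repeat spots averaged and the 75th percentile of each array subtracted. Detection asked that a share of 0.5 or more of a probe's spots be well above background. Differences of probes detected on each of the 2 arrays were averaged per gene, and 2-fold is a log2 difference of 1.0. A gene detected on 1 array has a bound against the higher of the lowest detected level on the other array and its own level there. Of 35885 probes with a RefSeq accession, 32993 were named through a RefSeq table of GRCm38.p6, used for names and promoter windows. Its older symbols were kept, except Nrdc. Probes of near-identical pseudogenes can take up each other's transcripts.

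Genes named are Nrdc, every member past 2-fold or detected on 1 array, the 3 highest and 3 lowest of each complex, fixed groups of paralogues, and up to 2 at each end of each list. Further members named inside a complex, among them Ndufv1, Cyc1 and the regulators Nrf1, Gabpa and Yy1, were chosen for their role. The members and lists were chosen with earlier results of these data known. Alternatives were quantile, loess (span 0.4), detected-probe, spike-in (8 probes) and value-table scaling, normexp (offset 50, limma 3.58.1), no filter, bright probes only (log2 signal of at least 8), the brightest probe and other thresholds. Normexp was run on the median signal of each spot and its median background, not on the processed signal. The steps were tested on simulated data. Python 3.11.15 with pandas 2.3.3 was used.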

Additional observations from a re-analysis of the deposited data

How the results depend on the processing

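No paired analysis was possible because there was only 1 array per group, and no replicate could be left out. A value was taken as moved when it differed by over 0.074, the 95th percentile of the repeat-spot SD. Spike-in scaling moved the values most. Normexp alone moved the medians of the complexes about as much as quantile scaling or loess, but the largest single differences more. Cox6a2 stood at 1.76 with normexp, 3.09 with quantile scaling and 3.16 with loess, and Nrdc at -2.23, -3.17 and -3.10. Normexp started from the median spot signal and added an offset of 50. The separate parts of the signal, the background correction and the offset were not tested. With quantile scaling, the medians of all respiratory chain genes and of complexes I to V, in that order, were -0.29, -0.31, 0.017, -0.48, -0.15 and -0.29, with 2 genes at least 2-fold higher, 4 lower and Nrdc at -3.17. They were -0.56, -0.53, 0.0688, -0.77, -0.58 and -0.62 with the 75th percentile over detected probes (1 higher, 11 lower, Nrdc -3.05). They were -0.25, -0.26, 0.0844, -0.41, -0.14 and -0.25 with loess (2 higher, 3 lower, Nrdc -3.10). They were -0.23, -0.19, 0.40, -0.44, -0.25 and -0.28 with the value table (5 higher, 4 lower, Nrdc -2.71). They were -0.21, -0.19, 0.14, -0.38, -0.28 and -0.27 with normexp and the 75th percentile (2 higher, 3 lower, Nrdc -2.23). They were -0.27, -0.29, 0.000297, -0.50, -0.15 and -0.29 with normexp and quantile scaling (2 higher, 3 lower, Nrdc -2.20). They were 1.17, 1.21, 1.8, 0.96, 1.15 and 1.12 with spike-in scaling (67 higher, 0 lower, Nrdc -1.31). With bright probes only, complexes II and IV stood at -0.37 and -0.82, with 0 genes higher, since Cox6a2 is too dim, and Nrdc had no value. Complex II stood at -0.17 with the brightest probe. With no filter 3 genes were higher, Cox8b and Cox7b2 being added. By construction, 2 were higher and 56 lower at 1.5-fold, and 1 and 0 at 4-fold. With spike-in scaling, which adds 1.90 to each gene, these past 2-fold lower turned positive: Atp5g1 0.62, Atp5g3 0.78, Atp5j 0.40, Atp5o 0.67, Cox6b1 0.80, Cox7b 0.77, Ndufa1 0.11, Ndufaf5 0.78, Ndufb10 0.34, Ndufb11 0.79, Ndufb9 0.17, Ndufs6 0.71, Ndufs7 0.85, Ndufv3 0.42, Sdhb 0.63, Uqcr11 0.60, Uqcrfs1 0.81, Uqcrq 0.34, Coq9 0.35, Etfa 0.85, Hk2 0.80, Idh2 0.37, Mrps24 0.27, Pdk1 0.11, Ppargc1b 0.56, Slc25a5 0.64, Suclg1 0.52, Taco1 0.75, Tfb1m 0.48, Timmdc1 0.00425, Tmem126b 0.42 and Vdac2 0.52. The acinar list median became 0.0823. Cox6a2 stayed past 2-fold higher wherever it was measured. Of the 45 members tracked singly, 44 kept their sign over detected probes, 38 with quantile scaling, 37 with loess, 36 with normexp and the 75th percentile, 35 in the value table and 10 with spike-in scaling.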

Other observations

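Summed over all genes measured on both arrays, the respiratory chain and ATP synthase genes held 1.95% of the linear signal in WT and 2.21% in Nrdc-cKO. The 14 acinar markers held 17.1% and 8.49%. These shares need no scaling between the arrays, and in them the respiratory chain genes were a slightly larger part of the Nrdc-cKO signal although their median log2 difference was below that of all genes. Probe brightness differs between genes, so a share of signal is no share of transcripts.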
